A study of Mus musculus with 17 samples.

Results

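Collagens are the most abundant proteins of the matrix between and beneath cells. Each is wound from alpha chains, either copies of the product of a single gene or a mixture from several, and the chains join in the endoplasmic reticulum before they are secreted. Fibrillar collagens, led by types I and III, form the cables that carry tension in the lung interstitium, the airway walls and the vessels. Type IV forms the sheet on which epithelial and endothelial cells rest, and in the alveolus that sheet lies in the thin barrier between air and blood. Others decorate fibrils, form beaded filaments or networks, or span the cell membrane. The genes described here are the 44 of 18262 measured genes whose symbol is Col, a number, the letter a and a number with nothing after it. By the type of assembly they fall into 11 fibrillar genes, 8 basement membrane genes (type IV with Col15a1 and Col18a1, whose products lie in the basement membrane zone) and 25 others.

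The samples were lungs of C57BL/6 mice, 4 libraries in each of 4 groups, with 1 library of the injected cells. The tumor_untreated mice carried M3-9-M, a mouse rhabdomyosarcoma (a muscle-type sarcoma) line with firefly luciferase and mCherry, of which 500000 cells had been placed in the gastrocnemius muscle of the leg, and their lungs were taken on day 15. The tumor_GEMy mice carried the same tumor and received 8000000 IL12-GEMy cells intravenously on day 12, with lungs taken on day 15. The naive_GEMy mice had no tumor and received the cells 3 days before their lungs were taken, and the naive_untreated mice had neither tumor nor cells. IL12-GEMy cells are myeloid cells engineered to secrete interleukin-12, the cytokine that makes T and NK cells produce interferon-gamma, and the cell product library came from bone marrow of naive C57BL/6 mice given a lentivirus with the growth factors SCF, FLT3L and IL-6. The study's title concerns the pre-metastatic niche of the lung, the state of the tissue before tumor cells settle in it. The labels do not say that each library is a mouse of its own, so the p values below rest on library-to-library spread, which may be technical. Sample descriptions carry the number 1 in the untreated and 2 in the treated tumor-bearing samples, and what that number stands for cannot be told apart from treatment. Letters follow the number and differ within each group (BL, NC, TL and BR in tumor_untreated, NC, BL, TR and TL in tumor_GEMy). What the letters stand for is not stated.

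Promoter windows are shown for genes with unlike values below. The first windows belong to genes whose RNA was lower in tumor_untreated than in naive_untreated lungs (the fibril gene Col3a1, the fibril gene Col5a1 and the network gene Col8a1) and the next to Col15a1, which was not called. The last line is the whole interval between the start sites of Col4a4 and Col4a3, which are read in opposite directions and whose ratio is given below. Windows are the 250 bases before the start site in RefSeq on GRCm38.p6, written 5′ to 3′ on the strand of the gene (plus strand for the interval). They lie at chr1:45311288-45311537 (plus strand), chr2:27886175-27886424 (plus), chr16:57754738-57754987 (minus), chr4:47207762-47208011 (plus) and chr1:82586850-82586920. Capitals mark the GC box GGGCGG or its reverse complement CCGCCC and the TATA box TATAAA or TTTATA.
Col3a1: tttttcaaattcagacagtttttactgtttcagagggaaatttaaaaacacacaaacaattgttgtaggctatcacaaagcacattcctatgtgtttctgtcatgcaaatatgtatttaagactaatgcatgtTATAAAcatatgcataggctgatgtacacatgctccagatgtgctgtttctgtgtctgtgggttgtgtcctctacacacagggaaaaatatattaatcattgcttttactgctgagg
Col5a1: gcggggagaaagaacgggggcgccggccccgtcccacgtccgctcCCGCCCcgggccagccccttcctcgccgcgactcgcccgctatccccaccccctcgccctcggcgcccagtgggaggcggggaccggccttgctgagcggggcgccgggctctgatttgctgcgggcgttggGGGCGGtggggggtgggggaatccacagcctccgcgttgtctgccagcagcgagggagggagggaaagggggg
Col8a1: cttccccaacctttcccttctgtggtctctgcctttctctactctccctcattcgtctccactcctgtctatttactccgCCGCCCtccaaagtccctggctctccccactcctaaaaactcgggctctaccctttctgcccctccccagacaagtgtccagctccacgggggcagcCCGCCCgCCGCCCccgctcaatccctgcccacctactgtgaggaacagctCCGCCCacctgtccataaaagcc
Col15a1: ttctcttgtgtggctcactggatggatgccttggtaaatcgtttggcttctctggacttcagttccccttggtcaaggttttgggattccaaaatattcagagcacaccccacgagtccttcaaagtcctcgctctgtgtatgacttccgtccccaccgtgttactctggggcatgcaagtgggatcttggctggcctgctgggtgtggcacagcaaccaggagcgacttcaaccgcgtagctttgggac
Col4a4 to Col4a3: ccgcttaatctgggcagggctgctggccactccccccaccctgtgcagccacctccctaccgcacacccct

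The Col8a1 window held 4 GC boxes, the nearest starting 23 bases before the start site, and the Col5a1 window held 2. The Col3a1 window held a TATA box starting 117 bases before the start site and no GC box. None of the letters searched, CCAAT or its reverse ATTGG included, were in the Col15a1 window or in the 71 bases between Col4a4 and Col4a3. RefSeq windows were matched for 35 of the 44 genes. On either strand, GGGCGG was in 60.0% of these 35 and in 32.7% of all 32851 windows of that length, CCAAT in 34.3% against 33.8%, and TATAAA in 14.3% against 12.4%. Among the 15 genes with a window that were lower in tumor_untreated lungs GGGCGG was in 66.7%, against 50% of the 12 that were tested and not called. These are matches of letters only, and none of these strings lies inside another.

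Values are reads per 1000000 assigned reads (RPM), recovered from the deposited FPKM, and levels compared between genes are RPM per kb of the longest annotated coding transcript. The lung libraries held 27566836 to 36815061 assigned reads, and Pearson correlations between libraries of a group were 0.98 to 0.996 on the log2 scale. Lung markers were high in every lung library, with the surfactant gene Sftpc at 8995 RPM or more and the club cell gene Scgb1a1 at 20550 RPM or more. Hemoglobin took 0.404 to 4.15% of reads in tumor_untreated, 0.225 to 1.78% in tumor_GEMy, 0.073 to 0.252% in naive_GEMy and 0.143 to 1.15% in naive_untreated lungs. Replicate 4 of tumor_untreated stood apart, with the highest hemoglobin share and the lowest summed level of 7 alveolar type 1 cell markers, 2236 RPM against 4620 to 5201 RPM in the other tumor_untreated libraries. Replicate 4 of naive_GEMy was the next lowest, at 3641 RPM. Both hold low values of several collagens below, and counts are therefore also given without them.

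Of the 44 genes, 36 passed the minimum of 0.5 RPM in at least 4 lung libraries: 8 of 11 fibrillar, 8 of 8 basement membrane and 20 of 25 others. The 8 under it were Col2a1, Col9a1, Col9a2, Col11a1, Col19a1, Col22a1, Col24a1 and Col25a1, whose highest value in any lung library was 0.978 RPM, for Col2a1. Together the 44 genes took 4207 ± 612 RPM in tumor_untreated, 4601 ± 302 RPM in tumor_GEMy, 4715 ± 526 RPM in naive_GEMy and 5272 ± 429 RPM in naive_untreated lungs (SD, n = 4 each). The basement membrane genes made the largest summed contribution in each group, with 2038 ± 363 RPM in tumor_untreated and 2261 ± 166 RPM in naive_untreated lungs. Fibrillar genes summed to 1294 ± 157 RPM in tumor_untreated and 1793 ± 213 RPM in naive_untreated lungs, and the others to 876 ± 138 RPM in tumor_untreated and 1218 ± 103 RPM in naive_untreated lungs.

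Per kb of transcript, the widespread basement membrane chains Col4a1 (132 ± 9.18 RPM per kb in naive_untreated lungs, SD, n = 4) and Col4a2 (127 ± 14) and the fibrillar gene Col3a1 (127 ± 19.4) had the highest levels, and these neighbours in the order did not differ beyond their spread. Next came Col1a2 (94.3 ± 10.3) and the beaded filament gene Col6a1 (92.1 ± 9.43), then Col6a2 (66.9 ± 6.65) and Col1a1 (66.8 ± 7.03), again within the spread of each other. A step of more than their spread separated these 7 from Col4a3 (29.2 ± 0.882), the transmembrane gene Col23a1 (20.0 ± 1.95) and Col6a3 (18.6 ± 1.8). The remaining 26 tested genes lay between 15.2 ± 1.16 RPM per kb for Col4a5 and 0.0682 ± 0.0307 RPM per kb for Col6a6. In tumor_untreated lungs the same 7 genes were on top, with Col4a1 at 132 ± 15.5, Col4a2 at 115 ± 21.2 and Col3a1 at 86.8 ± 10.3 RPM per kb, so that Col3a1 lay below Col4a1 there by more than either spread.

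**Figure D1:**
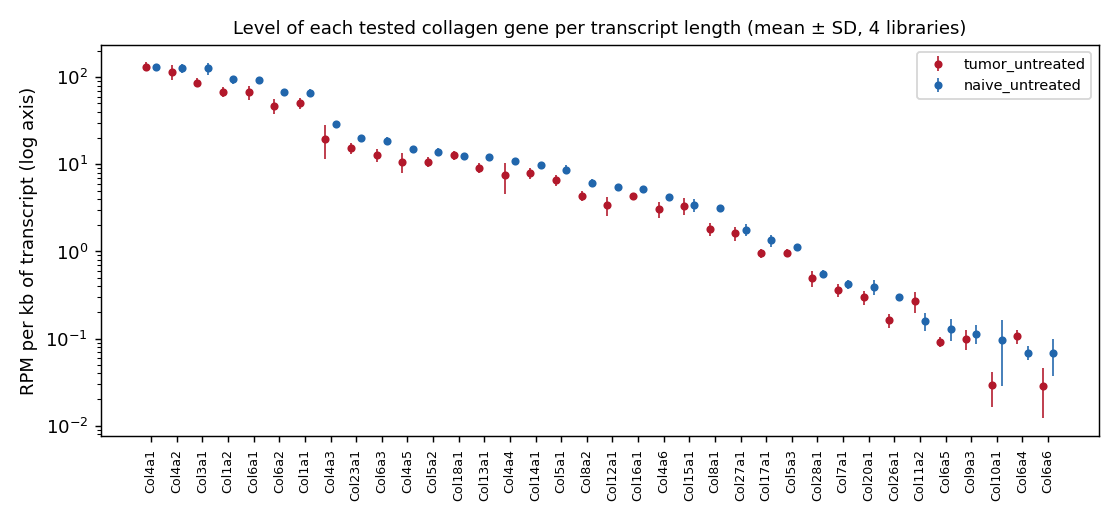
Mean level (RPM per kb of transcript, log axis) of each of the 36 tested collagen genes in tumor_untreated and naive_untreated lungs, ordered by the naive_untreated level; bars are SD over 4 libraries. Col4a1, Col4a2 and Col3a1 are highest in naive_untreated lungs, and Col4a1 is level between the groups while most genes to its right are lower in tumor_untreated lungs.

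Comparing tumor_untreated with naive_untreated lungs asked how a tumor growing in the leg altered the RNA of a distant organ. Collagen RNA was lower: 20 of the 36 tested genes fell and 2 rose at an adjusted p under 0.05 (limma, Benjamini-Hochberg over 15422 tested genes), where 26.0% of all tested genes fell and 14.7% rose (40.7% in either direction). The median log2 fold change was -0.41 over the 36 genes and -0.09 over all tested genes. By class, 5 of 8 fibrillar genes fell and 1 rose, 2 of 8 basement membrane genes fell, and 13 of 20 others fell and 1 rose. On the scale of RPM + 0.5 that the test used, the smallest of the called falls was that of Col16a1, which fell by 16.8%, and the greatest that of Col8a1, which fell by 42.2%. All 4 tumor_untreated libraries lay below all 4 naive_untreated libraries for 19 of the 36 genes, as they did for 23.4% of all tested genes, and above them for 0, against 12.1%. With median-of-ratios scaling, which splits the called genes of the whole table into 3091 higher and 2547 lower in place of 2271 higher and 4006 lower, 16 collagen genes fell and 2 rose. Without replicate 4 of tumor_untreated and of naive_GEMy, 18 fell and 0 rose. With the hemoglobin covariate 14 fell and 0 rose, and on log2(FPKM + 0.5), where 14 collagen genes passed the minimum, 9 fell and 0 rose. Bulk RNA cannot tell fewer cells of a type from less RNA per cell.

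**Figure D2:**
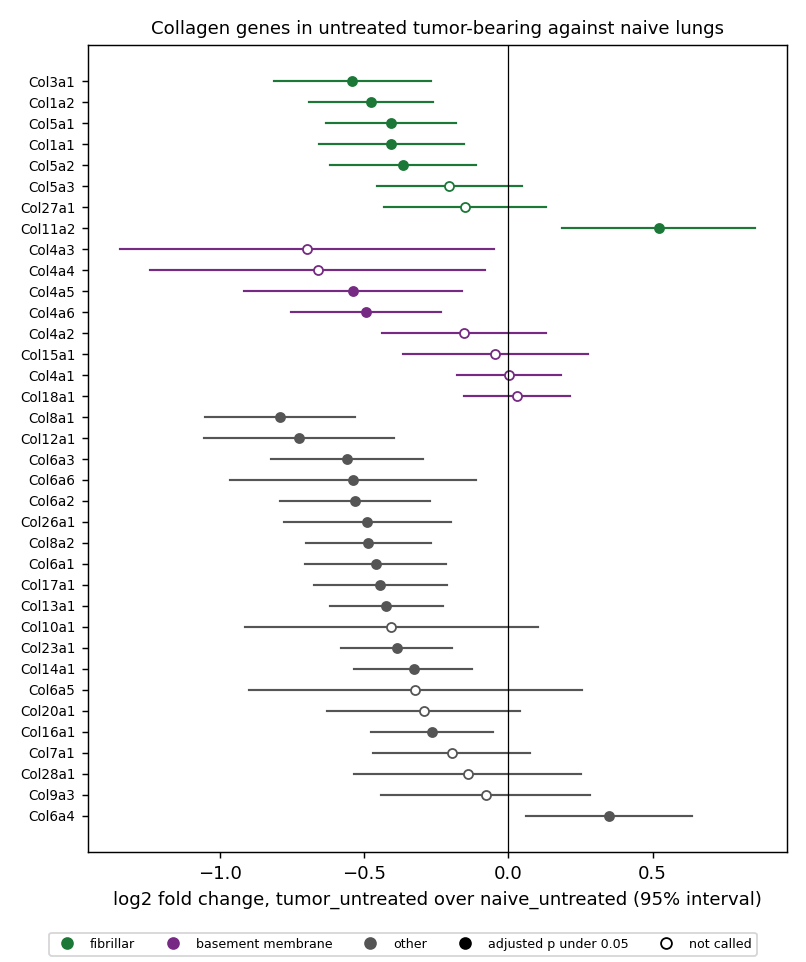
Log2 fold change of the 36 tested collagen genes, tumor_untreated over naive_untreated lungs, by class, with 95% intervals; filled points have an adjusted p under 0.05. Most fibrillar and other genes lie left of 0, Col4a1, Col15a1 and Col18a1 lie at 0, and Col11a2 and Col6a4 lie to the right.

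The genes of the main interstitial fibrils fell together. Col3a1 (chromosome 1, 45311538 to 45349706 on mm10), whose product forms the fine reticular fibers of distensible tissue, had 428, 536, 529 and 439.7 RPM in tumor_untreated lungs, against 846, 616, 734 and 625 RPM in naive_untreated lungs. The groups did not overlap, and Col3a1 fell by 31.3% (log2 fold change -0.54, SE 0.13, adjusted p = 0.0036). Type I collagen, the stiffest and most abundant fibril, is built from the products of Col1a1 and Col1a2. Col1a2 (chromosome 6, 4505618 to 4541543) had 374, 391, 391 and 297 RPM in tumor_untreated lungs, against 580.5, 459, 469 and 509 RPM in naive_untreated lungs (log2 fold change -0.48, SE 0.10, adjusted p = 0.00166). For Col1a1 (chromosome 11, 94936224 to 94953042) the values were 296, 327, 341 and 238 RPM in tumor_untreated lungs, against 456, 361, 375 and 393 RPM in naive_untreated lungs (log2 fold change -0.41, SE 0.12, adjusted p = 0.0125). Replicate 4 of tumor_untreated was the lowest library for both type I genes, and neither had overlapping groups. Without that library and replicate 4 of naive_GEMy, Col3a1, Col1a1 and Col1a2 were still called. With the hemoglobin share as a covariate Col1a1 was not (log2 fold change -0.28, adjusted p = 0.088).

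Type V collagen lies inside type I fibrils and sets how they begin. Its chain gene Col5a1 (chromosome 2, 27886425 to 28039510) had 54.3, 61.6, 60.8 and 43.9 RPM in tumor_untreated lungs, against 85, 66.2, 67.1 and 73.8 RPM in naive_untreated lungs (log2 fold change -0.41, SE 0.11, adjusted p = 0.00649). Col5a2, which lies 24624 bases from Col3a1 on chromosome 1 in the opposite orientation, had 67.1, 79.2, 79.9 and 59.3 RPM in tumor_untreated lungs, against 105, 82.5, 91 and 88.5 RPM in naive_untreated lungs (log2 fold change -0.37, SE 0.12, adjusted p = 0.0223). Both pairs of groups were separate, though the Col5a2 call was lost in 5 of 29 alternatives: with the hemoglobin covariate (adjusted p = 0.144), array weights (adjusted p = 0.0988) or median-of-ratios scaling (adjusted p = 0.0561), without replicate 4 of tumor_untreated (adjusted p = 0.0853) or replicate 1 of naive_untreated (adjusted p = 0.0772). The minor chain gene Col5a3 averaged 5.9 ± 0.675 RPM in tumor_untreated and 6.86 ± 0.584 RPM in naive_untreated lungs (SD, n = 4 each; log2 fold change -0.20, 95% interval -0.45 to 0.05). Col27a1, a fibrillar gene of developing cartilage, averaged 12.3 ± 2.32 RPM in tumor_untreated and 13.6 ± 2.12 RPM in naive_untreated lungs, and its interval (-0.43 to 0.13) also held 0.

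Col11a2 moved the other way. Its product is known as a minor chain of cartilage fibrils, and its RNA was scarce in lung, with 1.06, 1.52, 2.03 and 1.88 RPM in tumor_untreated lungs, against 0.68, 1.16, 1.12 and 0.908 RPM in naive_untreated lungs. Of the 4 tumor_untreated libraries, replicates 2 to 4 were above every naive_untreated library, and the rise was 43.5% (log2 fold change 0.52, SE 0.16, adjusted p = 0.0149). It lost the call without replicate 3 or 4 of tumor_untreated or replicate 1 of naive_untreated (adjusted p = 0.0509 to 0.0566). Among markers of cartilage, Acan was at 0 to 0.0973 RPM in tumor_untreated and 0.0358 to 0.774 RPM in naive_untreated lungs, while Sox9, the 1 called cartilage marker, averaged 1.51 ± 0.282 RPM in tumor_untreated and 0.819 ± 0.308 RPM in naive_untreated lungs (log2 fold change 0.63, adjusted p = 0.00903), and the part of cartilage in the Col11a2 values was not tested. Chromosome 17 holds Col11a2 at 34039138 to 34066684.

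**Figure D3:**
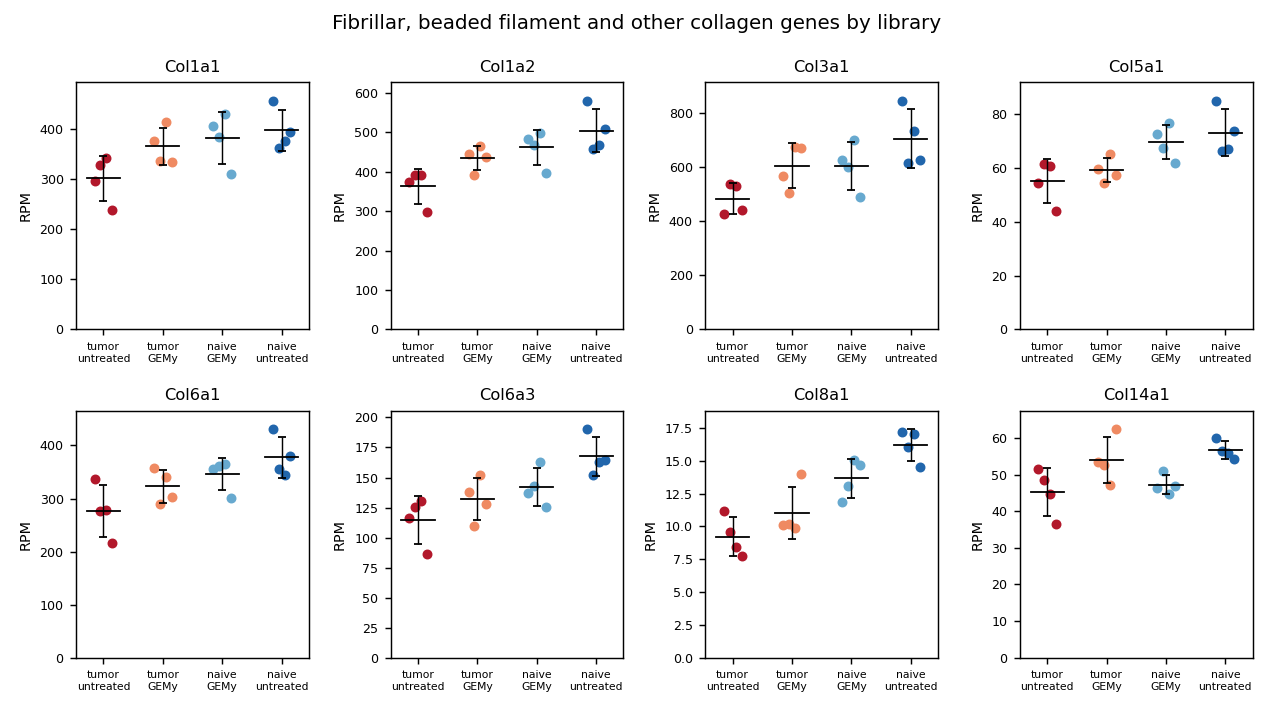
RPM of 8 interstitial collagen genes in every lung library (points, left to right replicates 1 to 4), with the mean and SD of each group. For all 8 genes the tumor_untreated points lie below the naive_untreated points, and for Col1a1, Col1a2 and Col3a1 the tumor_GEMy and naive_GEMy means lie in between.

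Basement membrane genes divided by chain. Col4a1 and Col4a2 encode the chains found in nearly all basement membranes, and neither was called. Col4a1 had 956, 858, 954 and 739 RPM in tumor_untreated lungs, against 929, 863, 790.5 and 906 RPM in naive_untreated lungs, and its log2 fold change was 0.00 (95% interval -0.18 to 0.18, adjusted p = 0.982). Col4a2 had 845, 785, 804 and 542 RPM in tumor_untreated lungs, against 873, 808, 698 and 901 RPM in naive_untreated lungs (log2 fold change -0.15, 95% interval -0.44 to 0.13). The interval of Col4a1 does not reach the size of any of the 20 called falls, while that of Col4a2 does. The pair overlaps by 22 bases at the start sites on opposite strands of chromosome 8, and the strand used in counting is not stated.

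The chains of the specialised network, Col4a3, Col4a4 and Col4a5, which with each other form the type IV collagen of the kidney glomerulus and the alveolus, gave larger differences. Col4a3 (chromosome 1, 82586921 to 82722059) had 229.9, 180.3, 198 and 68 RPM in tumor_untreated lungs, against 260.3, 246, 243 and 250.1 RPM in naive_untreated lungs. Col4a4 (chromosome 1, 82450723 to 82586849), whose start site is 71 bases away on the other strand, had 101, 78.6, 88.4 and 34.4 RPM in tumor_untreated lungs, against 114, 106, 106 and 119 RPM in naive_untreated lungs. Every tumor_untreated library was below every naive_untreated library for both genes, but replicate 4 of tumor_untreated lay far below the rest and the tests did not pass (Col4a3 log2 fold change -0.70, 95% interval -1.35 to -0.05, adjusted p = 0.0785; Col4a4 -0.66, -1.24 to -0.08, adjusted p = 0.0648). Leaving out replicate 1 of tumor_untreated brought both past the threshold (Col4a3 -0.89, adjusted p = 0.0347; Col4a4 -0.83, adjusted p = 0.0271). Both also passed in limma with array weights (Col4a3 -0.50, adjusted p = 0.0447, and Col4a4 -0.48, adjusted p = 0.0335). At the same fold both passed with the replicate number as a block (limma adjusted p = 0.0288 for Col4a3 and 0.0268 for Col4a4). Whether those numbers pair the samples cannot be told. Col4a4 also passed on log2(FPKM + 0.5) (-0.34, adjusted p = 0.0443), without replicate 4 of naive_GEMy (adjusted p = 0.0419) and, at a smaller size, without both replicates 4 (-0.32, adjusted p = 0.0451). Replicate 4 of tumor_untreated was also the library with the lowest alveolar type 1 marker sum, and the part of that in these values was not tested.

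Col4a5 and Col4a6 are X-linked neighbours, 1342 bases apart and read in opposite directions, and Col4a6 encodes a chain paired with that of Col4a5 in other basement membranes such as those of smooth muscle. Col4a5 had 83, 75.1, 78.9 and 43.9 RPM in tumor_untreated lungs, against 109.6, 94.9, 100.4 and 92.7 RPM in naive_untreated lungs (log2 fold change -0.54, SE 0.18, adjusted p = 0.0242). Col4a6 had 24.5, 20.9, 20.7 and 14.6 RPM in tumor_untreated lungs, against 31.2, 25.9, 28.7 and 27.1 RPM in naive_untreated lungs (log2 fold change -0.49, SE 0.12, adjusted p = 0.00467). Both were separate between the groups and both fell, but Col4a5 was not called with the hemoglobin covariate (log2 fold change -0.35, adjusted p = 0.139), without replicate 4 of tumor_untreated (log2 fold change -0.33, adjusted p = 0.0747) or replicate 1 of naive_untreated (-0.49, adjusted p = 0.0644).

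Col15a1 and Col18a1 encode collagens with sugar side chains that link basement membranes to the tissue around them, and the end of the Col18a1 product is released as endostatin. Col15a1 had 15.2, 18.9, 22 and 13.6 RPM in tumor_untreated lungs, against 22.4, 16.7, 16.4 and 15.9 RPM in naive_untreated lungs (log2 fold change -0.04, 95% interval -0.36 to 0.28). Col18a1 had 60.1, 65.5, 75.2 and 57.5 RPM in tumor_untreated lungs, against 67.4, 59.4, 60.5 and 64.4 RPM in naive_untreated lungs (log2 fold change 0.03, 95% interval -0.15 to 0.21). The groups overlapped for both genes, and neither was called under any of the alternatives run.

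**Figure D4:**
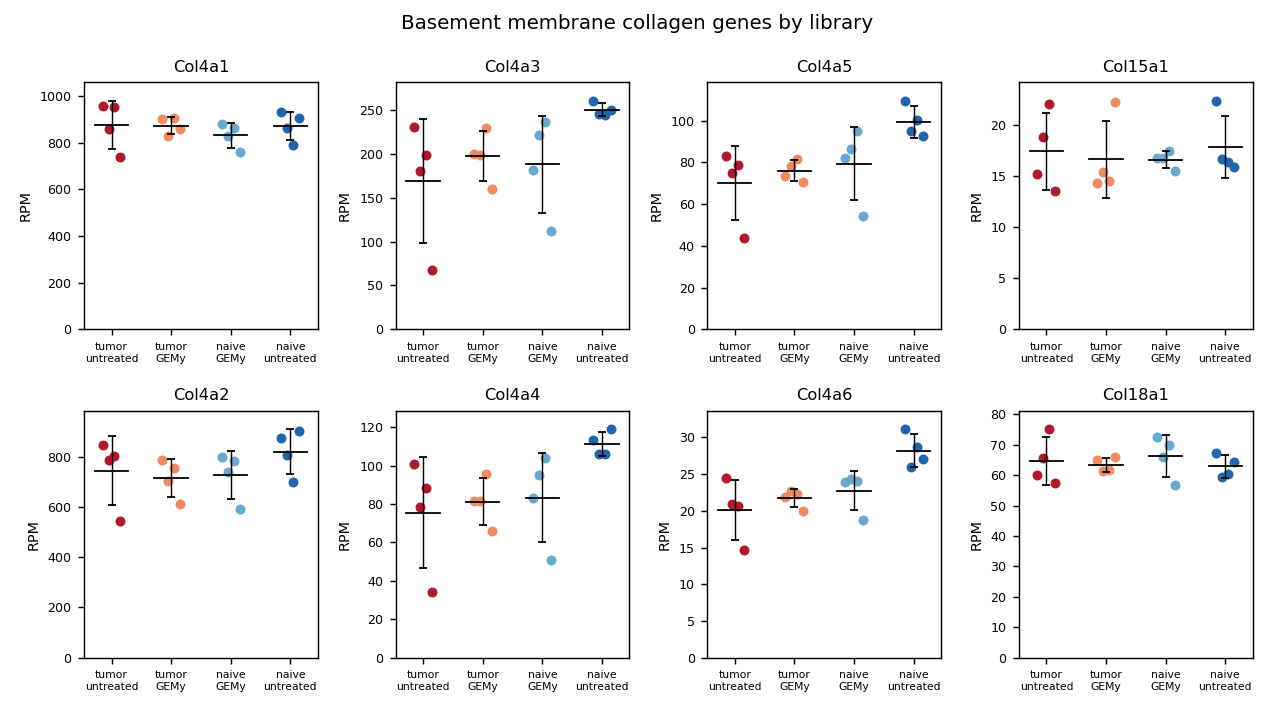
RPM of the 8 basement membrane collagen genes in every lung library (points, left to right replicates 1 to 4), with the mean and SD of each group. Col4a3 to Col4a6 are highest in naive_untreated lungs, with replicate 4 of tumor_untreated and of naive_GEMy the lowest library of its group, while Col4a1, Col15a1 and Col18a1 are level.

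Among the other types, 4 of the 6 beaded filament genes of type VI, a microfibril of the pericellular matrix, fell and 1 rose. Col6a1 had 336, 277, 278 and 216 RPM in tumor_untreated lungs, against 431, 356, 344 and 379.6 RPM in naive_untreated lungs (log2 fold change -0.46, SE 0.12, adjusted p = 0.00485). Col6a2, 85161 bases away on the same strand of chromosome 10, had 249.8, 234, 232 and 156 RPM in tumor_untreated lungs, against 353, 291, 285 and 315 RPM in naive_untreated lungs (log2 fold change -0.53, SE 0.12, adjusted p = 0.00297). Col6a3, the largest chain of the classical trio, had 116, 125, 130.2 and 86.3 RPM in tumor_untreated lungs, against 190.5, 152, 163 and 164 RPM in naive_untreated lungs (log2 fold change -0.56, SE 0.12, adjusted p = 0.00219). None of these 3 genes had overlapping groups. The later type VI genes Col6a4, Col6a5 and Col6a6 lie side by side on chromosome 9 and were scarce, between 0.0649 and 3.45 RPM in lung libraries. Col6a6 fell (log2 fold change -0.54, SE 0.20, adjusted p = 0.0417) and Col6a4 rose (log2 fold change 0.35, SE 0.14, adjusted p = 0.0494), both close to the threshold, while Col6a5 was not called (adjusted p = 0.362). The Col6a6 call was lost in 8 of 27 alternatives, among them leaving out replicate 2 or 4 of tumor_untreated or 1 or 3 of naive_untreated (adjusted p = 0.0570 to 0.144). The Col6a4 call was lost in 19 of 27, with adjusted p of 0.0503 to 0.131, 13 of them single libraries left out.

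On the tested scale of RPM + 0.5, which shrinks changes of scarce genes, Col8a1 had the largest fall of all 36 genes. It encodes a chain of type VIII collagen, a short network-forming collagen made by vascular and other mesenchymal cells. Its RNA stood at 11.2, 9.57, 8.42 and 7.74 RPM in tumor_untreated lungs, against 17.2, 16, 17.1 and 14.6 RPM in naive_untreated lungs (log2 fold change -0.79, SE 0.12, adjusted p = 0.000113), with no overlap. The partner chain gene Col8a2 averaged 19 ± 2.34 RPM in tumor_untreated and 26.7 ± 2.5 RPM in naive_untreated lungs (log2 fold change -0.48, SE 0.10, adjusted p = 0.00146).

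Fibril-associated collagens with interrupted helices sit on the surface of fibrils. Col12a1 had 42.7, 46.5, 41.6 and 25.1 RPM in tumor_untreated lungs, against 67, 58.7, 64.5 and 62.3 RPM in naive_untreated lungs (log2 fold change -0.72, SE 0.16, adjusted p = 0.00181), the next largest fall on the tested scale. Col14a1, found around tendon and skin fibrils, had 51.6, 48.5, 44.6 and 36.5 RPM in tumor_untreated lungs, against 60.0, 56.4, 55.9 and 54.2 RPM in naive_untreated lungs (log2 fold change -0.33, SE 0.10, adjusted p = 0.0129). Its call was lost without both replicates 4 (log2 fold change -0.23, adjusted p = 0.0582), with median-of-ratios scaling (-0.24, adjusted p = 0.0521) and with the hemoglobin covariate (-0.29, adjusted p = 0.0561). Col16a1 averaged 22.3 ± 2.26 RPM in tumor_untreated and 26.9 ± 2.37 RPM in naive_untreated lungs (log2 fold change -0.27, SE 0.10, adjusted p = 0.0436), and its call was lost in 14 of 29 alternatives, 7 of them single libraries left out (adjusted p = 0.0501 to 0.128). The Col12a1 groups did not touch, and neither did those of Col14a1, while those of Col16a1 overlapped.

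The 3 tested collagens that span the cell membrane also fell. Col23a1 averaged 87 ± 13.3 RPM in tumor_untreated and 113 ± 11 RPM in naive_untreated lungs (log2 fold change -0.39, SE 0.09, adjusted p = 0.00323). Col13a1, a collagen of cell-matrix junctions, averaged 28.7 ± 3.83 RPM in tumor_untreated and 38.5 ± 2.68 RPM in naive_untreated lungs (log2 fold change -0.42, SE 0.09, adjusted p = 0.00193). Col17a1, the hemidesmosome collagen of basal epithelial cells, averaged 5.35 ± 0.653 RPM in tumor_untreated and 7.48 ± 1.14 RPM in naive_untreated lungs (log2 fold change -0.44, SE 0.11, adjusted p = 0.00435), but was not called with array weights (log2 fold change -0.22, adjusted p = 0.0881). The secreted Col26a1 was near the detection minimum, at 0.451 ± 0.0824 RPM in tumor_untreated and 0.831 ± 0.0582 RPM in naive_untreated lungs (log2 fold change -0.49, SE 0.14, adjusted p = 0.00953). The remaining tested genes of this class, Col7a1 (anchoring fibrils beneath stratified epithelium), Col9a3, Col10a1, Col20a1 and Col28a1, had intervals that held 0 and adjusted p of 0.148 or more.

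Ratios per kb within a library show how chains of one network stood to each other. Col1a1 over Col1a2 was 0.745 ± 0.0323 in tumor_untreated and 0.709 ± 0.00979 in naive_untreated lungs (SD, n = 4 each). Col4a3 over Col4a4 was 2.6 ± 0.179 in tumor_untreated and 2.66 ± 0.119 in naive_untreated lungs, and Col4a5 over Col4a6 was 3.51 ± 0.346 in tumor_untreated and 3.58 ± 0.098 in naive_untreated lungs. The Col4a3 with Col4a4 and Col4a5 with Col4a6 ratios each differed between those groups by less than their spread. For the neighbours Col4a1 and Col4a2, Col4a1 over Col4a2 was 1.164 ± 0.1167 in tumor_untreated and 1.041 ± 0.051 in naive_untreated lungs. That difference exceeded either SD, though libraries overlapped (lowest 1.065 in tumor_untreated, highest 1.105 in naive_untreated). In tumor_GEMy lungs Col4a3 over Col4a4 was 2.87 ± 0.0267 and in naive_GEMy lungs 2.65 ± 0.0738; its lowest tumor_GEMy library (2.83) lay above every library of the other groups. Col4a3 over Col4a1 was 0.145 ± 0.0506 in tumor_untreated and 0.222 ± 0.011 in naive_untreated lungs, with no overlap (highest 0.186 in tumor_untreated, lowest 0.214 in naive_untreated). Such a ratio shows unequal change only.

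The proteins that make, trim and bind collagen chains were counted from lists. Of 17 genes for chain modification, folding and secretion, 6 fell and 1 rose; P3h2, a prolyl hydroxylase, averaged 15 ± 5.53 RPM in tumor_untreated and 21.9 ± 0.631 RPM in naive_untreated lungs (log2 fold change -0.62, adjusted p = 0.0434), and Colgalt2, which adds galactose to hydroxylysine, 23.6 ± 4.42 RPM in tumor_untreated and 34.5 ± 2.47 RPM in naive_untreated lungs (log2 fold change -0.56, adjusted p = 0.00153). Of 11 genes for propeptide removal and crosslinking, 6 fell and 1 rose. The one that rose was Adamts14, a procollagen N-proteinase, with 11.7 ± 3 RPM in tumor_untreated and 6.92 ± 1.1 RPM in naive_untreated lungs (log2 fold change 0.69, adjusted p = 0.00308), and Loxl1, a crosslinking oxidase, had the largest fall (log2 fold change -0.57, adjusted p = 0.00945). The median log2 fold change was -0.15 for the modification list and -0.25 for the propeptide and crosslinking list.

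Fibril-associated proteins fell in 5 of 7 cases with a median of -0.34, led by the small proteoglycan gene Fmod (log2 fold change -0.63, adjusted p = 0.00157) and Sparc (log2 fold change -0.54, adjusted p = 0.0233). Of 11 other basement membrane proteins 8 fell with a median of -0.43, led by the laminin chain Lama3 (log2 fold change -0.81, adjusted p = 0.0358) and the perlecan gene Hspg2 (log2 fold change -0.63, adjusted p = 0.0193). Of 10 collagen receptors 2 fell and 1 rose, with a median of -0.06. Lair1, an inhibitory collagen receptor of leukocytes, averaged 35 ± 9.04 RPM in tumor_untreated and 9.76 ± 1.15 RPM in naive_untreated lungs (log2 fold change 1.76, adjusted p = 1.03e-06), while the collagen uptake receptor Mrc2 averaged 84.1 ± 16.5 RPM in tumor_untreated and 137 ± 11.7 RPM in naive_untreated lungs (log2 fold change -0.72, adjusted p = 0.000409). For these lists too, the shares are to be read against the 26.0% of all tested genes that fell.

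Markers of lung cell types moved in the same comparison, and their part in the collagen values was not tested. Their counts stand beside 26.0% of all tested genes that fell and 14.7% that rose. Of 8 fibroblast markers 5 fell and 1 (Pi16) rose, with summed levels of 2317 to 3886 RPM in tumor_untreated and 4057 to 5076 RPM in naive_untreated libraries. Of 8 smooth muscle and pericyte markers 4 fell (689.6 to 1091 RPM in tumor_untreated, 1106 to 1341 RPM in naive_untreated), and of 8 endothelial markers 5 fell (3874 to 5112 RPM in tumor_untreated, 4793 to 5549 RPM in naive_untreated). Epithelial markers fell as well, with 3 of 7 for alveolar type 1 (2236 to 5201 RPM in tumor_untreated, 5787 to 6241 RPM in naive_untreated), 5 of 7 for alveolar type 2 (17890 to 22660 RPM in tumor_untreated, 26550 to 29150 RPM in naive_untreated) and 5 of 6 for airway (23390 to 30930 RPM in tumor_untreated, 34280 to 37490 RPM in naive_untreated), and 4 of 5 mesothelial markers fell (224 to 266 RPM in tumor_untreated, 292 to 331 RPM in naive_untreated). All 6 neutrophil markers rose (2790 to 4718 RPM in tumor_untreated, 179 to 266 RPM in naive_untreated). None of the 5 red cell genes was called (4130 to 42390 RPM in tumor_untreated, 1453 to 11700 RPM in naive_untreated). None of the markers named in these lists was at 0 in a lung library.

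Few listed markers of the tumor line and of bone were among the measured genes, and the measured ones, with those of cartilage, were scarce. Of 5 muscle regulatory and tumor line markers only Chrna1 was measured, at 0.0329 to 0.387 RPM over all lung libraries. Myod1, Myog, Myf5 and Myf6 were not among the measured genes, so whether tumor cells were in the lungs was not tested. Of 4 bone markers only Ibsp was measured, at 0 to 0.154 RPM, and Bglap, Bglap2 and Dmp1 were not. Of 7 cartilage markers 5 were measured: Acan, Matn3 and Cnmd were at 0 in at least 1 lung library, Hapln1 and Sox9 lay at 0.336 to 1.92 RPM, and Sox9 was the 1 called (log2 fold change 0.63, adjusted p = 0.00903 in tumor_untreated over naive_untreated).

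Adding IL12-GEMy cells to tumor-bearing mice asked whether the treatment altered the tumor-bearing lung. In tumor_GEMy over tumor_untreated lungs 0 of 36 collagen genes passed limma's adjusted p, where 5.23% of all tested genes did (2.42% rose and 2.81% fell). Without adjustment 10 of the 36 had a limma p under 0.05, as did 2811 of all 15422 tested genes. Among the 36, voom, a weighted limma fit on recovered reads, also called 0. The median log2 fold change was 0.13 over the 36 genes and -0.01 over all tested genes. This comparison shares the tumor_untreated libraries with the preceding one.

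Among fibrillar genes, types I and III lay on the high side without passing the threshold. Col3a1 had 566, 505, 676 and 672 RPM in tumor_GEMy lungs, against 428, 536, 529 and 439.7 RPM in tumor_untreated lungs (log2 fold change 0.32, 95% interval 0.05 to 0.59, adjusted p = 0.185). Col1a1 had 375, 336, 412 and 334 RPM in tumor_GEMy lungs, against 296, 327, 341 and 238 RPM in tumor_untreated lungs (0.28, 0.03 to 0.54, adjusted p = 0.204). Col1a2 had 445, 392, 466 and 438 RPM in tumor_GEMy lungs, against 374, 391, 391 and 297 RPM in tumor_untreated lungs (0.27, 0.05 to 0.48, adjusted p = 0.159). Every tumor_GEMy library lay above every tumor_untreated library for 2 of the 36 genes, Col1a2 and Col10a1, and for 4.38% of all tested genes, and below them for 0, against 4.3%. Col5a2 had a log2 fold change of 0.27 (0.02 to 0.52) and Col5a1 of 0.11 (-0.12 to 0.34). Col11a2, higher with tumor, had 1.33, 1.03, 0.969 and 0.986 RPM in tumor_GEMy lungs, against 1.06, 1.52, 2.03 and 1.88 RPM in tumor_untreated lungs (log2 fold change -0.41, 95% interval -0.74 to -0.07, adjusted p = 0.165).

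Basement membrane genes gave values around 0 in tumor_GEMy over tumor_untreated lungs. The log2 fold changes were 0.00 for Col4a1 (95% interval -0.18 to 0.18), -0.05 for Col4a2 (-0.33 to 0.24), -0.06 for Col15a1 (-0.38 to 0.26) and -0.02 for Col18a1 (-0.20 to 0.16). Wider intervals surrounded Col4a3 (0.34, -0.30 to 0.99), Col4a4 (0.20, -0.38 to 0.78), Col4a5 (0.15, -0.22 to 0.53) and Col4a6 (0.12, -0.14 to 0.38), where replicate 4 of tumor_untreated was the lowest library of its group. Among the others, Col6a1 (0.23), Col6a2 (0.26), Col6a3 (0.21), Col8a1 (0.24) and Col14a1 (0.25) were on the high side with adjusted p of 0.162 to 0.408. The largest value was that of the hypertrophic cartilage gene Col10a1 (log2 fold change 0.72, SE 0.24, adjusted p = 0.1), at 0.896, 0.333, 0.605 and 0.197 RPM in tumor_GEMy and 0.0603, 0.0973, 0.145 and 0.0616 RPM in tumor_untreated lungs. These are low values, and Col10a1 lies inside Nt5dc1, which is read from the other strand.

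**Figure D5:**
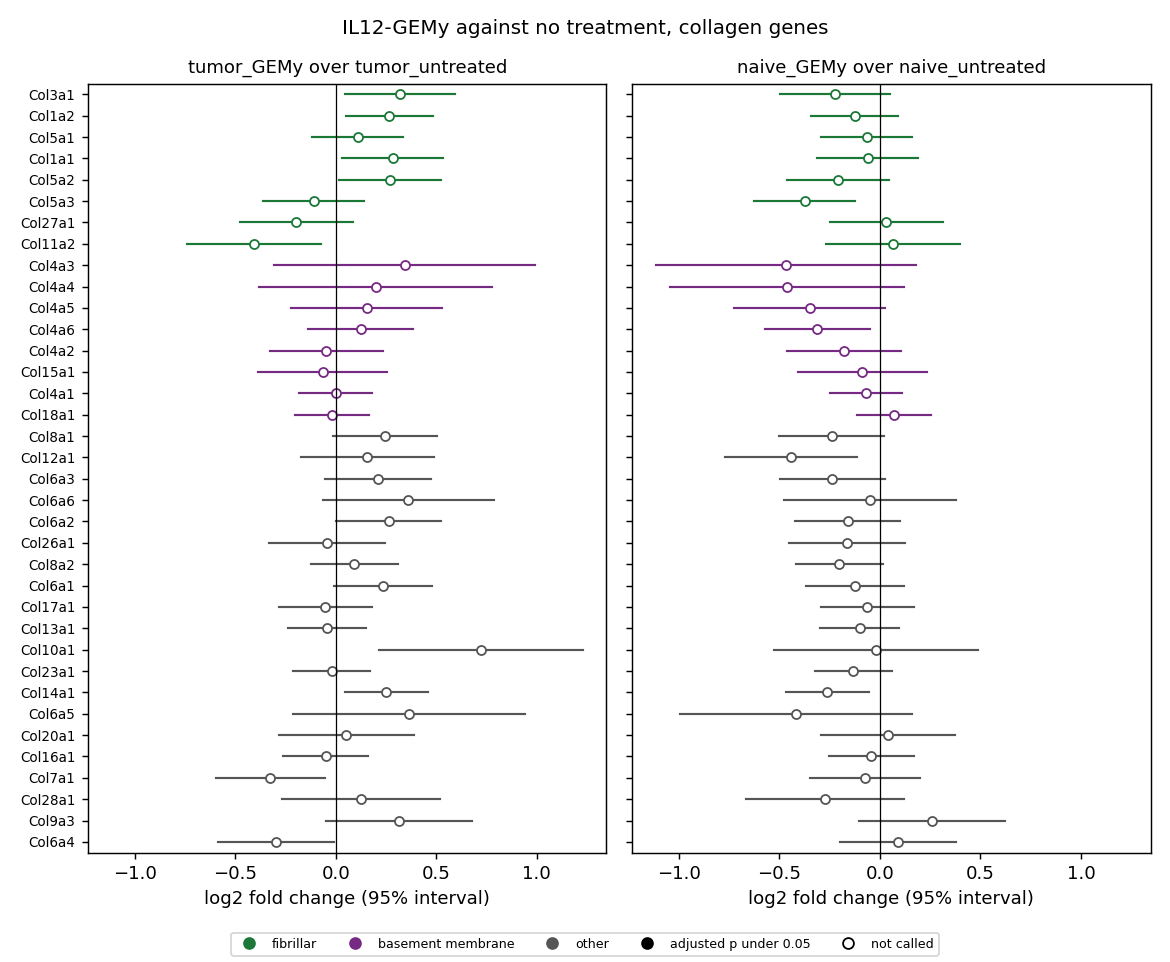
Log2 fold change of the 36 tested collagen genes with 95% intervals, tumor_GEMy over tumor_untreated (left) and naive_GEMy over naive_untreated (right), in the gene order of the plot of tumor effects. No point is filled, since no gene passed an adjusted p under 0.05; Col1a1, Col1a2 and Col3a1 lie right of 0 on the left side and left of 0 on the right side.

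In mice without a tumor, naive_GEMy over naive_untreated lungs gave 0 calls among the 36 genes, where 6.69% of all tested genes were called (5.12% rose and 1.58% fell). Without adjustment 4 of the 36 had a limma p under 0.05 (Col5a3, Col12a1, Col14a1 and Col4a6), as did 3039 of all 15422 tested genes. Among the 36, voom on recovered reads called 0. The median log2 fold change was -0.13 over the 36 genes and -0.04 over all tested genes. Col4a6 had 24, 24.3, 24 and 18.7 RPM in naive_GEMy lungs, against 31.2, 25.9, 28.7 and 27.1 RPM in naive_untreated lungs (log2 fold change -0.31, 95% interval -0.57 to -0.05, adjusted p = 0.163, and 0.0444 without replicate 4 of tumor_untreated, which enters the shared spread). Col14a1 had 46.4, 50.9, 44.6 and 46.9 RPM in naive_GEMy lungs, against 60.0, 56.4, 55.9 and 54.2 RPM in naive_untreated lungs (log2 fold change -0.26, SE 0.10, adjusted p = 0.134), and passed with only the compared groups (adjusted p = 0.0208) and with array weights (adjusted p = 0.0169). The groups of both genes were separate, and every naive_GEMy library was below every naive_untreated library for 6 of the 36 genes and for 8.69% of all tested genes, and above for 0, against 8.68%. Replicate 4 of naive_GEMy was the lowest library of its group for Col3a1, Col1a1, Col1a2, Col6a1, Col6a2 and every type IV gene.

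None of the main fibril genes was called in naive lungs. Col3a1 had 627, 600.2, 702 and 489.7 RPM in naive_GEMy lungs, against 846, 616, 734 and 625 RPM in naive_untreated lungs (log2 fold change -0.22, 95% interval -0.49 to 0.05). Col1a1 had 404, 382, 428 and 309 RPM in naive_GEMy lungs, against 456, 361, 375 and 393 RPM in naive_untreated lungs (-0.06, -0.31 to 0.19). Col1a2 had 483, 469, 499 and 397 RPM in naive_GEMy lungs, against 580.5, 459, 469 and 509 RPM in naive_untreated lungs (-0.12, -0.34 to 0.09). Groups overlapped for these 3 genes, and the same held for Col5a1 (-0.07, -0.29 to 0.16) and Col5a2 (-0.21, -0.46 to 0.04). Of the basement membrane genes, Col4a3 (-0.47, -1.11 to 0.18), Col4a4 (-0.46, -1.04 to 0.12) and Col4a5 (-0.35, -0.72 to 0.03) had wide intervals, and Col4a1 (-0.07, -0.25 to 0.11), Col4a2 (-0.18, -0.46 to 0.11), Col15a1 (-0.09, -0.41 to 0.23) and Col18a1 (0.07, -0.11 to 0.25) held 0. Col6a1 (-0.12, -0.37 to 0.12), Col6a2 (-0.16, -0.42 to 0.10), Col6a3 (-0.24, -0.50 to 0.03) and Col8a1 (-0.24, -0.50 to 0.02) were below 0 with intervals that held it.

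The interaction asked whether the cells altered the lung differently with a tumor than without, as the log2 change in tumor-bearing mice minus that in naive mice. Of the 36 genes 1 was called, where 1.03% of all tested genes were called higher, 3.94% lower and 4.97% in either direction, and the median was 0.32 over the 36 genes and 0.01 over all tested genes. The called gene was Col14a1, with 53.4, 52.5, 47.2 and 62.5 RPM in tumor_GEMy lungs, against 51.6, 48.5, 44.6 and 36.5 RPM in tumor_untreated lungs, beside the naive_GEMy and naive_untreated values given above. The tumor_GEMy libraries reached above the tumor_untreated ones with overlap, while the naive_GEMy libraries were all below the naive_untreated ones. Its change was 0.25 with a tumor and -0.26 without (interaction 0.51, SE 0.14, limma adjusted p = 0.038). The call was lost in 13 of 27 alternatives, among them leaving out any of 12 single libraries (adjusted p = 0.0502 to 0.0903), so it stood close to the threshold.

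Interaction values of the other described genes did not pass in the fit without covariates. They were 0.54 for Col3a1 (95% interval 0.16 to 0.93, adjusted p = 0.106), 0.48 for Col5a2 (0.12 to 0.84), 0.39 for Col1a2 (0.09 to 0.70), 0.34 for Col1a1 (-0.01 to 0.70) and 0.18 for Col5a1 (-0.14 to 0.49). For the type VI chains they were 0.36 for Col6a1, 0.42 for Col6a2 and 0.45 for Col6a3, and for Col8a1 0.49, with adjusted p of 0.130 to 0.246; without replicate 1 of tumor_untreated Col8a1 passed (0.58, adjusted p = 0.0336), as it did with array weights (0.41, adjusted p = 0.0407). With the hemoglobin covariate Col3a1 (0.61, adjusted p = 0.0415), Col5a2 (0.54, adjusted p = 0.0463) and Col6a3 (0.53, adjusted p = 0.0413) passed. Type IV values were 0.07 for Col4a1, 0.13 for Col4a2, 0.81 for Col4a3, 0.66 for Col4a4, 0.50 for Col4a5 and 0.43 for Col4a6, with adjusted p of 0.182 to 0.811; without replicate 1 of tumor_untreated Col4a6 passed (0.53, adjusted p = 0.0466). Col15a1 (0.02) and Col18a1 (-0.09) lay near 0.

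Comparing tumor_GEMy with naive_GEMy lungs asked what the tumor did among treated mice. Of the 36 genes 3 fell and 0 rose, where 6.58% of all tested genes fell and 3.85% rose (10.4% in either direction); with median-of-ratios scaling the split over the whole table was 824 higher and 492 lower in place of 593 higher and 1014 lower, and 1 collagen gene fell. The 3 that fell were Col17a1, Col13a1 and Col7a1. Col17a1 had 4.97, 5.17, 5.48 and 4.87 RPM in tumor_GEMy lungs, against 7.29, 6.72, 7.42 and 6.9 RPM in naive_GEMy lungs (log2 fold change -0.43, SE 0.11, adjusted p = 0.0201). Col13a1 had 30.2, 25.8, 30.8 and 24.5 RPM in tumor_GEMy lungs, against 36.6, 34.7, 37.2 and 34.8 RPM in naive_GEMy lungs (log2 fold change -0.36, SE 0.09, adjusted p = 0.0202). Col7a1 had 2.47, 2.23, 3.03 and 2.5 RPM in tumor_GEMy lungs, against 3.97, 3.41, 4.11 and 3.18 RPM in naive_GEMy lungs (log2 fold change -0.45, SE 0.13, adjusted p = 0.0357). Every tumor_GEMy library lay below every naive_GEMy library for 5 of the 36 genes, these 3 with Col23a1 and Col27a1, and for 13.2% of all tested genes. They lay above for 0, against 5.92%. All 3 calls were lost with hemoglobin as a covariate (adjusted p = 0.239 to 0.316). Leaving out a single library also ended calls: replicates 1 and 3 of naive_GEMy for Col17a1, replicates 2 and 4 of tumor_GEMy and 1 and 3 of naive_GEMy for Col13a1, and replicates 1, 2 and 4 of tumor_GEMy and 1, 2 and 3 of naive_GEMy for Col7a1, with adjusted p of 0.0533 to 0.102.

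No fibrillar or basement membrane gene was called between tumor_GEMy and naive_GEMy lungs. Log2 fold changes were 0.00 for Col3a1 (95% interval -0.27 to 0.27), -0.06 for Col1a1 (-0.31 to 0.19), -0.08 for Col1a2 (-0.30 to 0.13), -0.23 for Col5a1 (-0.46 to -0.01) and 0.11 for Col5a2 (-0.14 to 0.37). For type IV they were 0.07 for Col4a1, -0.02 for Col4a2, 0.11 for Col4a3, 0.00 for Col4a4, -0.04 for Col4a5 and -0.06 for Col4a6, and Col15a1 (-0.02) and Col18a1 (-0.06) were as near 0. Col6a1 (-0.10), Col6a2 (-0.11) and Col6a3 (-0.11) were slightly below 0, Col8a1 was at -0.30 (adjusted p = 0.121, and 0.0346 without replicate 4 of tumor_GEMy) and Col14a1 at 0.18 (adjusted p = 0.238). Every interval but those of Col5a1 and Col8a1 among these genes held 0. A p that misses the threshold does not show that these levels are equal.

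Calls of the other collagen pathway genes in the treated comparisons are to be read against all tested genes. Of these 5.23% were called in tumor_GEMy over tumor_untreated, 6.69% in naive_GEMy over naive_untreated and 10.4% in tumor_GEMy over naive_GEMy lungs. For the interaction the share was 4.97%. In tumor_GEMy over tumor_untreated lungs the collagen-binding integrin Itga1 rose, with 253 ± 34.4 RPM in tumor_GEMy and 166 ± 25.2 RPM in tumor_untreated lungs (log2 fold change 0.61, adjusted p = 0.00539), and so did the basement membrane linker Nid1, with 238 ± 14.5 RPM in tumor_GEMy and 185 ± 11 RPM in tumor_untreated lungs (log2 fold change 0.36, adjusted p = 0.00539). These were the 1 of 10 receptors and the 1 of 11 basement membrane proteins called, and the chain modification, processing and fibril-associated lists had 0 calls. In naive_GEMy over naive_untreated lungs Adamts14 (log2 fold change 1.12, adjusted p = 0.000163) and Lair1 (log2 fold change 1.11, adjusted p = 0.000418) rose and Fmod fell (log2 fold change -0.52, adjusted p = 0.0258), with 0 calls in the other lists. In tumor_GEMy over naive_GEMy lungs Colgalt2 (log2 fold change -0.48, adjusted p = 0.0174), Pcolce2 (log2 fold change -0.54, adjusted p = 0.0112), Bmp1 (log2 fold change -0.27, adjusted p = 0.0416) and Postn (log2 fold change -0.30, adjusted p = 0.0481) fell. The interaction was below 0 for Adamts14 (log2 -1.0, adjusted p = 0.0157) and Lair1 (log2 -1.37, adjusted p = 0.0041).

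Col2a1 and Col10a1, genes of cartilage, were at the edge of detection and had their 4 highest values in the 4 libraries highest for Acan. Col2a1, the main fibril gene of cartilage, had 0.0302, 0.0973, 0 and 0.0308 RPM in tumor_untreated, 0.978, 0.3, 0.484 and 0.0986 RPM in tumor_GEMy, 0.0672, 0.276, 0.844 and 0 RPM in naive_GEMy and 0.143, 0.0682, 0.563 and 0.337 RPM in naive_untreated lungs. The proteoglycan gene Acan, a defining cartilage marker, had 0.0603, 0.0973, 0.0726 and 0 RPM in tumor_untreated, 1.14, 0.433, 0.757 and 0.0986 RPM in tumor_GEMy, 0.0336, 0.184, 0.703 and 0 RPM in naive_GEMy and 0.0358, 0.136, 0.774 and 0.471 RPM in naive_untreated lungs. The highest library for both, and for Col10a1, was replicate 1 of tumor_GEMy, and the highest naive_GEMy and naive_untreated libraries for all of them were the replicates 3. The Col10a1 value in tumor_GEMy over tumor_untreated lungs stands beside these Acan values, and the part of cartilage in it was not tested. Of Col9a1, Col9a2 and Col9a3, fibril-surface chains of cartilage, Col9a1 had 0 reads in 6 of 16 lung libraries and Col9a2 in 4. Col9a3 and Col11a2 had other top libraries than Acan: Col9a3 was highest in replicate 1 of naive_GEMy (0.773 RPM) and Col11a2 in replicate 3 of tumor_untreated. In the 4 libraries highest for Acan, Col9a3 was nonetheless at 0.457 to 0.738 RPM, within a range of 0.216 to 0.773 RPM over all lung libraries.

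The injected cells carried little collagen RNA. In the 1 cell product library (31111336 assigned reads, no replicate) the 44 genes summed to 64.1 RPM. Of them 19 had 0 reads (a floor of 3 reads is 0.0964 RPM, and the exact 95% Poisson interval at 0 reads ends at 0.119 RPM), 5 had 1 to 3 reads and 20 had more. The fibril genes of the interstitium were nearly absent, with Col3a1 at 0 reads, Col1a1 at 13 reads and Col1a2 at 6 reads, and Col6a1, Col6a2 and Col8a1 were at 0 reads. Basement membrane genes made up most of the sum, with Col18a1 at 29.2 RPM (exact 95% Poisson interval 27.4 to 31.2), Col4a1 at 8.07 RPM (exact 95% Poisson interval 7.1 to 9.13) and Col4a2 at 7.14 RPM (exact 95% Poisson interval 6.23 to 8.14). The lowest lung library had 56.9 RPM of Col18a1, 739 RPM of Col4a1 and 542 RPM of Col4a2. Col11a2 was the 1 gene above every lung library, at 9.16 RPM (exact 95% Poisson interval 8.13 to 10.3) in the product against 0.68 to 2.03 RPM in lungs. Col27a1 (2.15 RPM), Col5a1 (2.35 RPM) and Col28a1 (1.25 RPM) were the others at 1 RPM or more. Intervals and floors cover counting error only.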

How the data were processed

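RNA was sequenced in 16 lung libraries and 1 cell product library. Per the submitters' processing notes, STAR 2.7.3a and Partek were used on mm10; the annotation, the counting settings and the strand are not given in the sources used here. The authors deposited FPKM per gene and library, divided by genomic span (introns included). FPKM times span sums to 1000000 in each library, giving RPM, and its steps gave reads; the share of values below 1000 reads that came out whole (tolerance 0.02) was 86.7 to 88.4%. Levels per kb used the longest GENCODE coding transcript. Group means were fitted with limma 3.58.1 (R 4.3.3, trend and robust moderation, 2-sided) on log2(RPM + 0.5) for the 15422 genes with at least 0.5 RPM in at least 4 lung libraries. P values were adjusted by Benjamini-Hochberg, with a threshold of 0.05, and the code was tested on simulated data. Members and lists were chosen with earlier results of these data known. Named in every comparison were 18 collagens, then called members among the 8 largest changes and, per pathway list, the 2 most changed called genes; other members were named after their values were seen. Alternatives were pseudocounts, minimums, FPKM in place of RPM, scalings, fewer groups, a replicate block, voom, a hemoglobin covariate, array weights and libraries left out.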

Additional observations from a re-analysis of the deposited data

Results flagged for a closer look

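Single libraries stood far from the other 3 of their group for 7 of 116 sets of a gene and a group, by Dixon's test at the 95% level, where chance flags about 1 in 20. Replicate 4 of naive_GEMy was low for 3 of them: Col6a1 at 300.8 RPM (others 356.1 to 365.9), Col6a2 at 237.6 RPM (others 290.2 to 294.7) and Col4a6 at 18.7 RPM (others 24.0 to 24.3). The same library had the lowest alveolar type 1 marker sum of its group, 3641 RPM against 5760 to 5775 RPM in the others, and the part of that in the collagen values was not tested. Replicate 4 of tumor_GEMy was high for Col8a1, at 14.0 RPM (others 9.90 to 10.2), and for Col15a1, at 22.2 RPM (others 14.3 to 15.4). Replicate 1 of naive_untreated was high for Col15a1 as well, at 22.4 RPM (others 15.9 to 16.7). Replicate 3 of naive_untreated had Col6a6 at 1.00 RPM (others 0.437 to 0.501).

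Col14a1 was called for a change with IL12-GEMy cells that differed between tumor-bearing and naive lungs (interaction 0.51 on the log2 scale, limma adjusted p = 0.038). It was the 1 called of 36 collagen genes, where 4.97% of all tested genes were called. The call was lost in 13 of 27 alternatives. In the cell product, which entered no comparison, Col11a2 stood at 9.16 RPM, above its range of 0.68 to 2.03 RPM over the lung libraries.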

How the results depend on the processing

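No collagen result changed sign where it had been called. The 22 calls in tumor_untreated over naive_untreated lungs were 9 on log2(FPKM + 0.5), where 14 members passed the minimum, and 14 with the hemoglobin covariate, and 16 to 24 with single libraries left out. In naive_GEMy over naive_untreated lungs the count of 0 was 2 with only the compared groups, 2 with the hemoglobin covariate, 6 with array weights and 0 to 2 with single libraries left out. In tumor_GEMy over tumor_untreated lungs the count of 0 was 1 with quantile normalization, 2 with array weights and 0 to 1 with single libraries left out. In tumor_GEMy over naive_GEMy lungs the count of 3 was 0 on log2(FPKM + 0.5), 1 with median-of-ratios scaling, 5 with only the compared groups, 0 with the hemoglobin covariate, 6 with array weights, 5 without both replicates 4 (tumor_untreated and naive_GEMy) and 0 to 5 with single libraries left out (0 without replicate 1 or 3 of naive_GEMy). The interaction count of 1 was 0 on log2(FPKM + 0.5), 4 with the hemoglobin covariate, 3 with array weights, 0 without both replicates 4 and 0 to 3 with single libraries left out (3 without replicate 1 of tumor_untreated). Leaving out both replicates 4 was chosen after seeing the data. Over all genes, tumor_GEMy over tumor_untreated calls were 243 with only the compared groups and 2348 with array weights in place of 806, and naive_GEMy over naive_untreated calls 1720 and 2672 in place of 1032. Calls of tumor_GEMy over naive_GEMy were 205 with the hemoglobin covariate and 3225 with array weights in place of 1607, and interaction calls 2049 with array weights and 402 without both replicates 4 in place of 767. With single libraries left out these ranged over 4731 to 7151 for tumor_untreated over naive_untreated, 489 to 1099 for tumor_GEMy over tumor_untreated, 659 to 1377 for naive_GEMy over naive_untreated, 780 to 2264 for tumor_GEMy over naive_GEMy and 499 to 1578 for the interaction. Whether replicate numbers pair the samples cannot be told from the check made, which held same-numbered libraries only. Deviations of these libraries correlated over 0.1 in 12 of 24 pairs (-0.25 to 0.49). With the number as a replicate block the collagen counts were 23 in tumor_untreated over naive_untreated lungs, 5 in tumor_GEMy over naive_GEMy lungs, 1 in the interaction and 0 in the others. The cause of these shifts was not tested, beyond the fewer genes that passed the minimum in FPKM. Depth limited the collagens far below 1 RPM, where 1 read is a visible step.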
